A study of Mus musculus with 6 samples.

Results

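The circRNAs described here come from genes that make or break down the cyclic nucleotides cAMP and cGMP. They were chosen by host gene from a list of 10: the adenylyl cyclase genes Adcy5, Adcy6 and Adcy9, and the phosphodiesterase genes Pde3a, Pde4a, Pde4b, Pde4d, Pde5a, Pde7a and Pde8a. Of these, 7 had circRNAs, and Adcy6, Pde4b and Pde7a had none. The 7 genes gave 35 of the 9548 circRNAs in the table, and 343 of its 37393 back-spliced reads (0.917%). A circRNA is an RNA whose downstream end is spliced back to an upstream exon, and each back-spliced read crosses that join. The sequenced RNA came from the aortas of male ApoE-/- mice on a C57BL/6 background, which lack apolipoprotein E and develop atherosclerosis. Both groups carry this deletion. From 6 weeks of age, mice received a high-fat diet (HFD) with added cholesterol and cholic acid or a chow diet, which the labels call a normal diet, for 12 weeks. Each diet has 3 libraries, called aortas below, and whether a library holds more than 1 aorta is not given in the sources used here.

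Adenylyl cyclases make cAMP from ATP when G proteins coupled to hormone receptors activate them, and phosphodiesterases open the ring of cAMP or cGMP and end the signal. In arteries, cAMP acting through protein kinase A and cGMP acting through protein kinase G relax smooth muscle. PDE4 and PDE8 enzymes are specific for cAMP. PDE3 enzymes cleave both cAMP and cGMP, and cGMP slows their cleavage of cAMP. PDE5 is specific for cGMP and is the target of sildenafil. A circRNA of such a gene need not follow the level of its mRNA or enzyme, and mRNA was not analysed here.

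The join of a circRNA is the only stretch that its linear transcript lacks, so the joins of the circles with most reads in each gene are printed first, together with the one called between the diets. Each runs 5′ to 3′ on the sense strand, with the last 20 bases of the circle in lower case and its first 20 bases in capitals. Sequences are from GENCODE vM21 transcripts and coordinates are for GRCm38. All 34 exonic circles of these genes end at annotated exons there, with 5 starts moved by 1 base to the exon. Of the circles printed, this holds for circRNA4457 and circRNA8109, whose starts in the table are 4294664 and 81300641. The build itself is not given in the sources used here.
Adcy5 circRNA690 (exons 4 to 8, chr16:35267180-35274565, + strand): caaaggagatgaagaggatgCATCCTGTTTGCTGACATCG
Adcy5 mmu_circ_0006232 (exons 4 to 12, chr16:35267180-35283609, + strand): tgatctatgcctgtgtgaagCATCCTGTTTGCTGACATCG
Adcy9 circRNA4457 (exons 3 to 9, chr16:4294663-4312789, - strand): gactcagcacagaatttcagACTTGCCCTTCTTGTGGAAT
Pde3a circRNA1350 (exons 3 to 4, chr6:141459056-141459838, + strand): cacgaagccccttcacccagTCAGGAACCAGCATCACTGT
Pde4a circRNA2158 (exons 3 to 13, chr9:21192395-21205413, + strand): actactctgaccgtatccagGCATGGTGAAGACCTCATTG
Pde4d mmu_circ_0004451 (exons 9 to 13, chr13:109933868-109939361, + strand): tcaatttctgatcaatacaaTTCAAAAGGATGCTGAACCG
Pde8a circRNA8109 (exons 2 to 4 of a non-coding transcript, chr7:81300640-81306783, + strand): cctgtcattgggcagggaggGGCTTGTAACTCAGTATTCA
Pde5a mmu_circ_0001165 (exon 2, chr3:122747889-122748477, + strand): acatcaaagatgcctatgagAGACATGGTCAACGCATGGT
Pde5a mmu_circ_0001166 (exons 7 to 12, chr3:122781567-122818067, + strand): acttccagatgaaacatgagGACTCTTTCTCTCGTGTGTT
The Adcy5 joins share their capitals, because both circles start at exon 4. Apart from circRNA8109, every exon in these circles is coding.

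Longer stretches are shown for the exon 2 circle of Pde5a, tied for the most reads of the 35, and for circRNA690, the Adcy5 circle with most reads. The Pde5a circle is a single exon of 589 nt, codons 41 to 237 of 865. Around its join, the last 150 bases are in lower case and the first 150 in capitals.
Pde5a mmu_circ_0001165: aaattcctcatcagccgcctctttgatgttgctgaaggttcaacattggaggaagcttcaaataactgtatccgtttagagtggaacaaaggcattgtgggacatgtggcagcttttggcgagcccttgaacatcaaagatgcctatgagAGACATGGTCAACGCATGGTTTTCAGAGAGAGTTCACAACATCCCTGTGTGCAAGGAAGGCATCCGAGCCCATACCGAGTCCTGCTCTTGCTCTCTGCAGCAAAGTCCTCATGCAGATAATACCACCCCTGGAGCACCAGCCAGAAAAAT
circRNA690 is 682 nt long, has exons of 112, 128, 159, 142 and 141 nt, and covers codons 470 to 697 of 1262, which include part of the first catalytic domain. Its first exon opens most Adcy5 circles, and its exon 7 holds a match to the let-7b-5p seed, in capitals, that is described with the miRNAs.
Adcy5 exon 4 (chr16:35267180-35267291, + strand): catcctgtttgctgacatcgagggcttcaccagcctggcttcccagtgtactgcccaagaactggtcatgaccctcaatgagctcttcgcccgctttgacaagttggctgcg
Adcy5 exon 7 (chr16:35272079-35272220, + strand): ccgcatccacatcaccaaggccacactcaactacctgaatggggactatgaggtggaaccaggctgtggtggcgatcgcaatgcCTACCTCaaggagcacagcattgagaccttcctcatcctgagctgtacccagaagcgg

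The libraries were unequal in depth. Back-spliced reads numbered 4694 to 5621 in the HFD aortas and 7142 to 7585 in the chow diet aortas, and the median circRNA of the table had 2 reads over all 6. Of the 35 circles, 22 (62.9%) had reads in 1 aorta, against 72.3% of all circRNAs, and 14 had a single read. Reads from both diets were seen for 9, from the HFD alone for 10 and from the chow diet alone for 16. This split was not counted over all circRNAs, and the chow diet libraries were deeper. Their share of the back-spliced reads was 0.830% ± 0.027 in HFD aortas and 0.978% ± 0.164 in chow diet aortas (SD, n = 3 each), and the aortas overlapped. The adenylyl cyclases held 0.0471% ± 0.034 and 0.176% ± 0.089, the phosphodiesterases 0.782% ± 0.017 and 0.802% ± 0.237. The aortas overlapped in both, and for the cyclases HFD replicate 1 (0.0852%) lay above chow diet replicate 1 (0.0791%). Without Pde5a, the phosphodiesterases held 0.207% ± 0.048 and 0.139% ± 0.028, from 31 reads in each diet, and the aortas overlapped. Differences between the diets were tested with edgeR's quasi-likelihood test over all circRNAs, and over all host genes with the reads of each gene summed, where at least 2 aortas had reads. Reads of single aortas are given in the order of replicates 1, 2 and 3. A difference was called at an unadjusted p under 0.05 with an absolute log2 fold change above 1. Normalized reads below are reads scaled to the mean effective library size (TMM). The p-values measure only the spread between these 6 libraries. Intervals pool the reads of each diet, so they cover counting error only and leave out the spread between aortas. Folds against 0 reads leave out the counting error of the diet with reads, so they are not lower bounds. PCR copies were not marked, and neither allows for them.

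Of the cyclases, Adcy5 had fewer circRNA reads on the HFD, and Adcy9 had none there. Adcy5, a calcium-inhibited cyclase found in heart and arterial muscle, had 4, 2 and 1 reads with the HFD and 6, 9 and 13 with the chow diet, summed over its 9 circles. With TMM scaling the diets did not overlap, and HFD replicate 1 (4.87 normalized reads) lay close to chow diet replicate 1 (5.35). As a share of all back-spliced reads they overlapped, with 0.0852% and 0.0791% in the same aortas. The means were 2.70 ± 1.94 and 8.34 ± 2.91 normalized reads (SD, n = 3 each; two-sided exact permutation test with p = 0.1, the smallest that 3 against 3 allow). edgeR gave a log2 fold change of -1.61 with a standard error of 0.80 (adjusted p = 0.67), a called decrease. The ratio of chow diet to HFD was 3.18, with a 95% counting interval of 1.36 to 8.62. Adcy9, a widely expressed cyclase that responds poorly to forskolin, had no reads in any HFD aorta and 0, 5 and 6 in the chow diet aortas over 5 circles. Chow diet replicate 1 was thus no higher than the HFD aortas (two-sided exact permutation, p = 0.4). Adcy9 was 2.91-fold lower on the HFD with 3 reads over the group as the floor, and met the call (edgeR, adjusted p = 0.67). Adcy6 had no circRNA in any aorta, which allows up to 3 reads.

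These were the 2 calls among the 6 genes tested, both lower on the HFD. Over all 2240 host genes tested, 4.46% were called in either direction, 2.77% lower and 1.7% higher, and 0.179% had an adjusted p under 0.05. With TMM scaling, non-overlap with the HFD lower, which for Adcy5 depended on that scaling, was found in 5.89% of the host genes. Adcy9 entered the test only through its chow diet reads. The Adcy5 call was lost with library size alone (log2 fold change -1.43), with DESeq2 (-1.48) and with 10 or more reads required (-1.49). It was also lost without HFD replicate 2 (-1.40), HFD replicate 3 (-1.22), chow diet replicate 2 (-1.62) or chow diet replicate 3 (-1.20). The Adcy9 call was lost with DESeq2, and without chow diet replicate 2 or 3 its reads were in 1 aorta and were not tested. The adjusted p ranged from 0.60 to 1.00 for Adcy5 and from 0.45 to 1.00 for Adcy9 over the alternatives.

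With TMM scaling, summed reads of smooth muscle and adipocyte marker genes were also lower in every HFD aorta than in every chow diet aorta. Of single host genes 5.89% showed this pattern, and no such rate was computed for sums over a list. As shares of all back-spliced reads, the adipocyte sums still did not overlap and the smooth muscle sums did (0.298% in HFD replicate 1, 0.28% in chow diet replicate 2). Of 10 smooth muscle markers, 7 had circRNA reads, with 9.17 to 17.1 normalized reads together in the HFD aortas and 18.9 to 26.6 in the chow diet aortas. Myocd, a coactivator of smooth muscle genes, gave 11, 9 and 6 of the HFD reads and 17, 16 and 21 of the chow diet reads, while Tagln, Cnn1 and Ldb3 were at 0. None of the 4 smooth muscle markers tested was called, and for Myocd the log2 fold change was -0.71 (adjusted p = 0.71 from edgeR). Of 6 adipocyte markers, 4 had reads, with 6.23 to 8.53 against 12.0 to 23.7 normalized reads. Most came from Acaca, the fatty acid synthesis enzyme acetyl-CoA carboxylase (log2 fold change -1.28, edgeR, adjusted p = 0.67, called), and Adipoq and Plin1 were at 0. The endothelial (3 of 6 with reads), leukocyte (4 of 6), cardiac muscle (1 of 6) and skeletal muscle (3 of 8) markers overlapped between the diets. The part of these differences in the Adcy5 and Adcy9 results was not tested. In such bulk aortas, fewer cells of a type and less RNA per cell cannot be told apart.

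**Figure D1:**
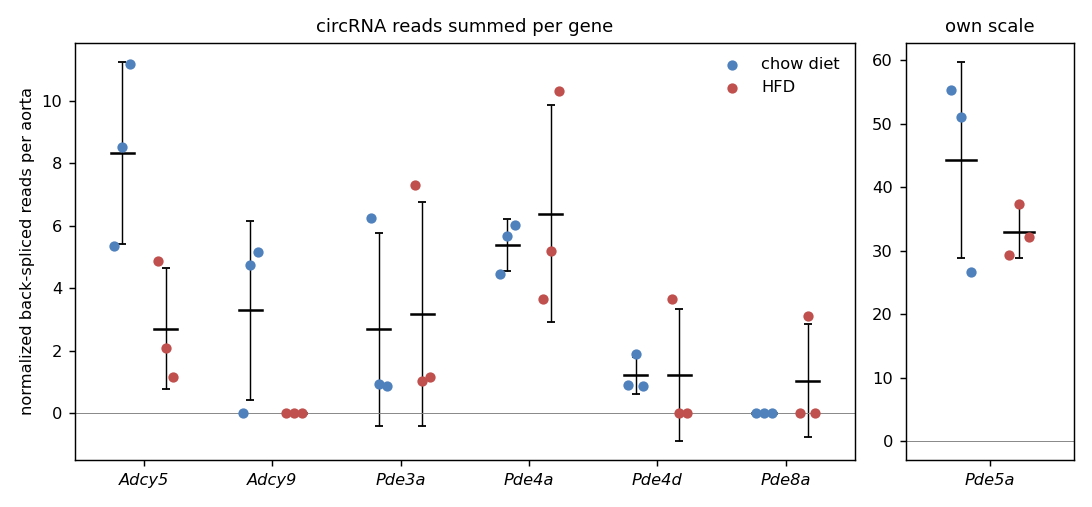
Normalized back-spliced reads per aorta (y axis, the right panel for Pde5a on its own scale), summed over all circles of each gene with circRNAs (x axis). Points are aortas, horizontal lines are means and bars are SD (n = 3); Adcy5 is the gene whose diets do not overlap with this TMM scaling (as library shares they do), and Adcy9 lies at 0 in all 3 HFD aortas.

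The Adcy5 reads sat on a few circles with a shared start. Exon 4 opened 6 of the 9 circles and 31 of the 35 reads (88.6%), and the circles differed in the exon at which they closed, from exon 7 to exon 20. circRNA690, closing at exon 8, had 3, 0 and 0 HFD reads against 2, 5 and 9 chow diet reads. HFD replicate 1 lay above chow diet replicate 1, so the diets overlapped (log2 fold change -1.89, standard error 1.18, edgeR, adjusted p = 0.61). It met the call in 3 of 15 alternatives, with limma (-1.77), with its entries as deposited, and without HFD replicate 1, the only HFD aorta with reads (fitted value -5.32). Without any other single aorta it ran from -2.33 to -1.41 and was not called. mmu_circ_0006232, closing at exon 12, had no HFD read and 2, 3 and 3 chow diet reads. It was 2.05-fold lower on the HFD against a floor of 3 reads over the group. It was the 1 call among the 13 circles tested (edgeR, adjusted p = 0.61). It entered the test only through its chow diet reads. Over all 2646 circRNAs tested, 3.4% were called, 2.34% lower and 1.06% higher, 0.0756% had an adjusted p under 0.05, and 4.54% had the HFD below the chow diet without overlap. The fitted log2 fold change was -4.31, and the call was lost whichever of the 6 aortas was left out (-4.47 to -4.21), with library size alone (-4.25), with DESeq2 (-3.37) or with no filter (-4.34). As a share of the Adcy5 reads of each aorta, mmu_circ_0006232 made up 29.9% ± 5.9 on the chow diet (SD, n = 3) and 0% on the HFD, where 7 Adcy5 reads were seen in all. Of 1045 circles whose share of their gene's reads could be compared, 4.11% had the HFD lower without overlap. The other 7 Adcy5 circles had 1 or 2 reads each, and all of them were seen in a single aorta.

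In Adcy9, which lies on the reverse strand, 3 of the 5 circles opened at the exon whose start is at position 4312789 of chromosome 16. circRNA4457, from that exon to the exon ending at 4294663, had 0, 2 and 3 reads on the chow diet and none on the HFD. It was 1.28-fold lower against the floor of 3 reads and did not meet the call (edgeR, adjusted p = 0.61). The other 4 circles had 1 or 2 reads. All Adcy9 reads thus came from chow diet replicates 2 and 3.

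Among the phosphodiesterases that cleave cAMP, alone or with cGMP, no gene met the call. Pde3a, the cGMP-inhibited enzyme of arterial muscle and heart, had 6, 1 and 1 HFD reads against 7, 1 and 1 chow diet reads. Replicate 1 of each diet held most of them, and the log2 fold change was 0.20 (standard error 1.14, edgeR, adjusted p = 0.95). Its sign turned when single aortas were left out, from -1.08 to 1.65. Of its 6 circles, 5 opened at exon 3 and held 16 of 17 reads. circRNA1350, which closes at exon 4, was found in the most aortas of them, with 2, 1 and 0 reads against 1, 0 and 1. The other circles of this exon were each seen in 1 diet: circRNA6631, closing at exon 5, had 4 reads in HFD replicate 1, and circRNA1353, closing at exon 9, had 3 and 1 in chow diet replicates 1 and 2.

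Pde4a, a cAMP-specific enzyme, had a single circle made of 11 exons, with 3, 5 and 9 HFD reads against 5, 6 and 7 chow diet reads. The circle spans exons 3 to 13, codons 166 to 567 of 844, and is 1204 nt long. Both the lowest and the highest count were on the HFD, and the gene-level log2 fold change was 0.24 (standard error 0.73, edgeR, adjusted p = 0.95). Without HFD replicate 3 it was -0.21. The table lists this circle as 2 entries with the same end. circRNA2158 starts at the annotated first base of exon 3, and circRNA6022 starts 1 base later. circRNA2158 held 5, 6 and 0 chow diet reads and no HFD read. circRNA6022 held all 3, 5 and 9 HFD reads and 0, 0 and 7 chow diet reads. No aorta had reads in both. Taken alone, circRNA2158 had a fitted log2 fold change of -4.80 and met the call (edgeR, adjusted p = 0.58), and with the entries summed it was 0.30 (adjusted p = 0.95).

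The other such pair in these genes was circRNA690 with circRNA7073, whose only reads were the 3 of HFD replicate 1. Alone, circRNA690 met the call (fitted log2 fold change -5.29, edgeR, adjusted p = 0.58), and summed it did not. Over the whole table there were 475 pairs of entries with starts 1 base apart, and in all of them the later start was the entry whose host is given by an Ensembl identifier. Of 1672 cases of a pair with reads in an aorta, 9 (0.538%) had reads in both entries. In 131 pairs each entry was seen in a single, opposite diet while the sum was seen in both. The gene sums above are the same whether the pairs are split or joined.

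**Figure D2:**
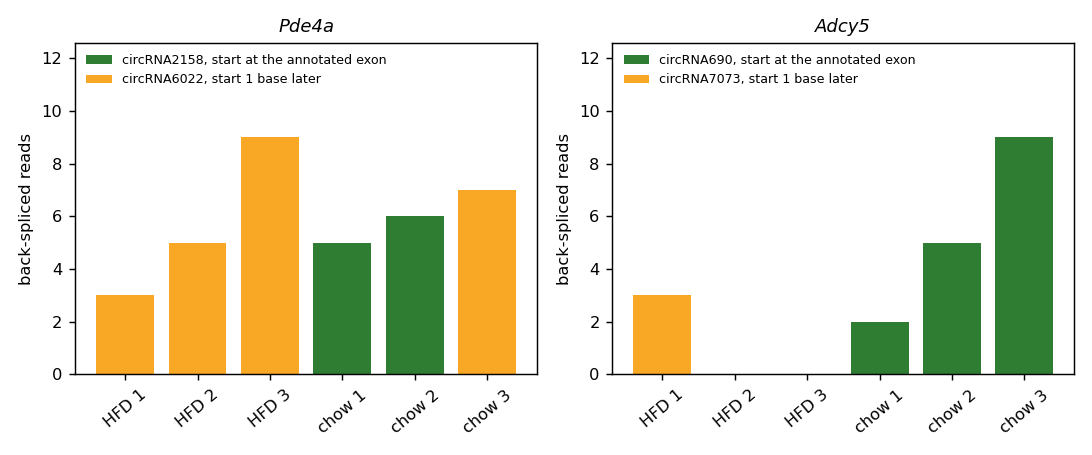
Back-spliced reads (y axis) in each aorta (x axis) for the paired entries of Pde4a and Adcy5, stacked by entry. Every bar has a single colour, so each aorta's reads were all given to 1 entry of the pair, and the Pde4a circle has 3 to 9 reads in every aorta once the entries are joined.

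Pde4d, another cAMP-specific enzyme, had 3, 0 and 0 HFD reads against 1, 2 and 1 chow diet reads (log2 fold change -0.04, standard error 1.80, edgeR, adjusted p = 0.99). HFD replicate 1 was the highest of all 6 aortas, and the sign was not stable between scalings. With single aortas left out, the value ran from -3.42 without HFD replicate 1 to 0.57 without HFD replicate 2. Its main circle, mmu_circ_0004451, had 2, 0 and 0 against 1, 2 and 1 reads. Pde8a, a high-affinity cAMP enzyme, had 3 reads of 1 circle, circRNA8109, all in HFD replicate 2, and was not tested. Pde4b and Pde7a, which also encode cAMP-specific enzymes, had no circRNA.

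Pde5a, which encodes the cGMP-specific enzyme of vascular smooth muscle, supplied most of the circRNA reads. It gave 235 reads (68.5% of the 343) and ranked 7 by reads among the 3981 host genes, whose median was 3 reads and 1 circle. Its 11 circles put it at rank 37 by number of circles. The sums were 24, 36 and 28 HFD reads and 62, 54 and 31 chow diet reads. After scaling, chow diet replicates 1 and 2 (55.2 and 51.1 normalized reads) stood above the HFD aortas (29.2, 37.4 and 32.1), and chow diet replicate 3 (26.6) stood below them. The means were 32.9 ± 4.1 and 44.3 ± 15.5 (SD, n = 3 each; exact permutation test, p = 0.4), with a log2 fold change of -0.42 (standard error 0.29, edgeR, adjusted p = 0.73). The log2 fold change stayed between -0.54 and -0.21 in the 15 alternative fits and met the call in none.

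A pair of Pde5a circles had 89 reads each, rank 25 of all 9548 circRNAs. mmu_circ_0001165, exon 2 alone, had 13, 10 and 7 HFD reads against 25, 19 and 15 chow diet reads. Raw reads did not overlap, but with the deeper chow diet libraries allowed for they did, since HFD replicate 1 (16.2 normalized reads) exceeded chow diet replicate 3 (12.8). The means were 11.6 ± 4.0 and 17.5 ± 4.7, with a log2 fold change of -0.59 (standard error 0.47, edgeR, adjusted p = 0.69). mmu_circ_0001166, exons 7 to 12, had 9, 18 and 12 against 23, 20 and 7 reads, and chow diet replicate 3 was the lowest of all. Its means were 14.7 ± 3.6 and 14.9 ± 7.8 normalized reads (log2 fold change -0.01, standard error 0.46, edgeR, adjusted p = 0.99). The sign of this value changed with the scaling.

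Within Pde5a, the mix of circles was compared as shares of each aorta's reads. mmu_circ_0001166 made up 37.5%, 50.0% and 42.9% of the HFD reads and 37.1%, 37.0% and 22.6% of the chow diet reads. All HFD aortas lay above all chow diet aortas (exact permutation test, p = 0.1, the smallest possible), but HFD replicate 1 (9 of 24 reads) and chow diet replicate 1 (23 of 62 reads) lay within 1 read of each other. Of 1045 circles compared as shares of their gene's reads, 3.25% had the HFD higher without overlap. mmu_circ_0001165 made up 35.6% ± 16.1 and 41.3% ± 6.7 (exact permutation test, p = 0.6). These shares of 1 total are not independent of each other.

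The remaining Pde5a circles were small in number. mmu_circ_0001167, which starts 1 exon after mmu_circ_0001166 and shares its end, had 2, 0 and 2 against 3, 13 and 1 reads. Most came from chow diet replicate 2, and the log2 fold change of -1.62 had a standard error of 1.08 (edgeR, adjusted p = 0.61). Without that aorta the value was -0.24. Exon 12 closed 3 circles and 111 of the 212 reads on exonic Pde5a circles (52.4%), and exon 2 opened 3 circles and 93 reads (43.9%). The only intronic circle of these genes, ciRNA148 (chr3:122791214-122792219, inside an intron of Pde5a), had 0, 2 and 4 HFD reads against 10, 0 and 7 chow diet reads. Both groups included an aorta at 0 (log2 fold change -1.07, edgeR, adjusted p = 0.82). The value was -2.10 without HFD replicate 3, -1.71 without chow diet replicate 2, -0.58 without HFD replicate 1 and -0.48 without chow diet replicate 1. The other 7 circles had 1 to 3 reads.

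**Figure D3:**
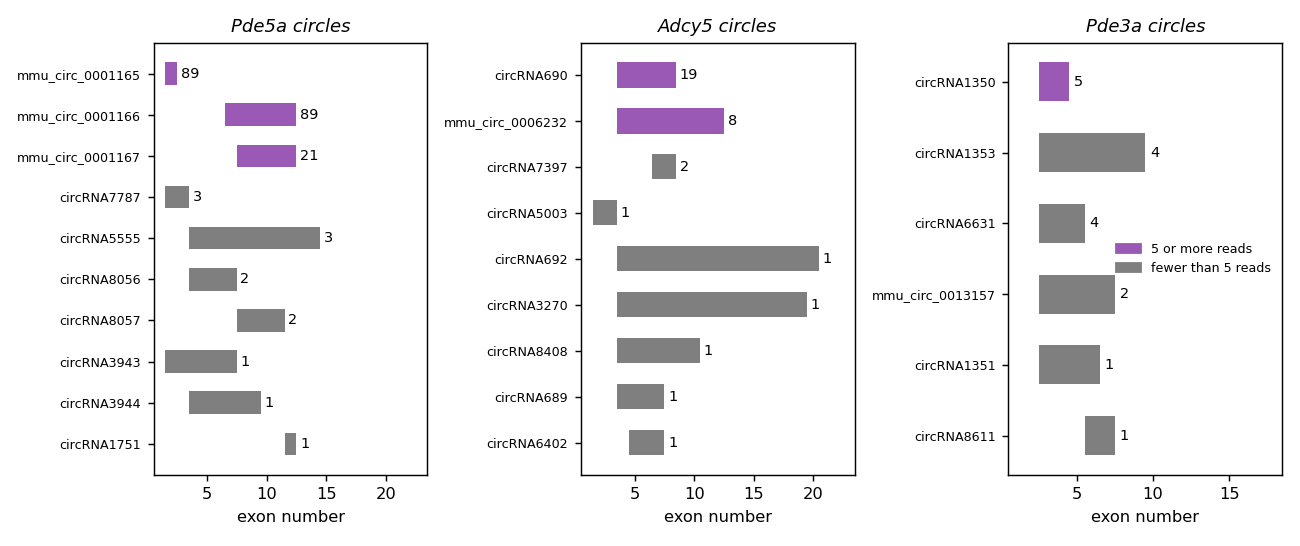
Exons held by each circle (x axis, exon number in its transcript; 1 bar per circle, with its back-spliced reads over the 6 aortas written beside it) for Pde5a, Adcy5 and Pde3a. Adcy5 and Pde3a circles line up on a common first exon, exon 4 and exon 3, while the Pde5a circles with most reads form separate groups at exon 2 and at exons 7 to 12.

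The structure of the 34 exonic circles was set beside that of the whole table. They had a median of 4 exons and 633 nt, against 4 exons and 554 nt for the 8296 exonic circles with annotated ends. The intron before the first exon had a median of 13751 nt against 7286 nt, and the intron after the last exon 5259 nt against 5859.5 nt. All exons were coding in 32 of the 34 (94.1%) against 79.2%, and the length was a multiple of 3 in 8 (23.5%) against 38.5%. Circles of 1 gene share exons and introns, so these are descriptions with no test. A start 1 base inside the annotated exon, without a paired entry, was found in 5 of the 34 (14.7%) against 4.67%. Among the 416 host genes with at least 5 exonic circles, the most used first exon opened a median of 40% of a gene's circles. It opened 83.3% in Pde3a, a share that 1.2% of those genes reached, and 66.7% in Adcy5, a share that 7.45% reached. It opened 60.0% in Adcy9 (15.9% reached it) and 30.0% in Pde5a (70.4%).

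The 9 circles printed first were searched for 7-base matches to bases 2 to 8 of 3 miRNAs followed elsewhere in this work, around the whole circle on the sense strand. The mature sequences, from RefSeq on GRCm38.p6, are shown with those bases in capitals.
mmu-miR-17-5p: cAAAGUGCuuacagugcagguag
mmu-let-7b-5p: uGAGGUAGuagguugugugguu
mmu-miR-212-5p: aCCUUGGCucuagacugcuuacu
The match to miR-17-5p, GCACTTT, was in none of the 9 circles. The match to let-7b-5p, CTACCTC, was found once in both Adcy5 circles, at base 484 from the start of exon 4 and so in a stretch they share. Of exonic circles within 10% of the length of circRNA690, 5.93% held it. The match to miR-212-5p, GCCAAGG, was found once in the Pde4d circle at base 262, and 9.08% of circles of like length held it. These are letters in a sequence, and binding was not measured here.

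Of the 13 circles tested, 9 had a log2 fold change below 0 and 4 above, with a median of -0.59 against -0.13 for all circRNAs tested. Of the 6 genes tested, 4 were below 0 and 2 above, with a median of -0.23 against -0.17 for all host genes. The medians describe only circles and genes with reads in at least 2 aortas, and 4 of the 13 circles and 1 of the 6 genes had reads in 1 diet alone. The median over all host genes moved to 0.02 with library size alone, and the share of lower calls fell from 62.0% to 47.2%; for circRNAs the share was 68.9% and 50.7%. No circle and no gene had an adjusted p under 0.05 with edgeR, where the smallest were 0.61 and 0.67. At an unadjusted p under 0.05, edgeR gave 1 circle and 2 genes, and DESeq2 called neither.

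**Figure D4:**
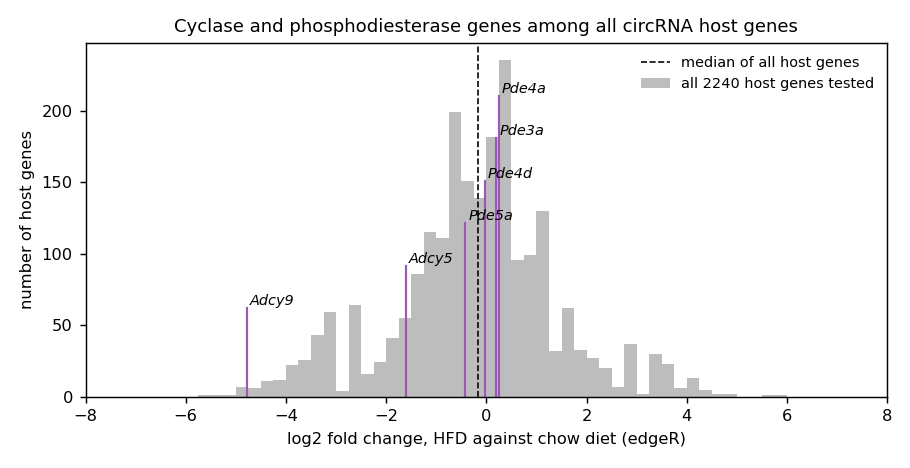
Number of host genes (y axis) by log2 fold change of HFD against chow diet (x axis, edgeR, bins of 0.25) for all 2240 host genes tested, with the 6 cyclase and phosphodiesterase genes tested as labelled lines whose heights carry no value. Adcy9 (fitted value, HFD at 0) and Adcy5 lie to the left and the 4 phosphodiesterase genes lie near the dashed median of -0.17.

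The rest of the pathway was read from lists of 74 further gene symbols, in which Irag1 and Mrvi1 name the same gene. Of these, 37 had circRNA reads, 25 were tested, 1 was called higher and 1 lower on the HFD, where 1.7% and 2.77% of all host genes were called. Their median log2 fold change was -0.32, against -0.17 for all host genes. Gnai3, which encodes an inhibitory G protein subunit that restrains adenylyl cyclases, had 2, 3 and 0 HFD reads and no chow diet read (edgeR, adjusted p = 0.67). Against the floor of 3 reads, Gnai3 was 2.10-fold higher. Creb1, the transcription factor that protein kinase A phosphorylates, had no HFD read and 0, 3 and 5 chow diet reads (edgeR, adjusted p = 0.67). Against the same floor, Creb1 was 2.12-fold lower. Both genes entered the test only through the diet that had reads, and an aorta of that diet was at 0 in each. Neither was called with DESeq2 or limma, and neither was tested with reads in 3 aortas or 10 reads required. Gnai3 was also not called without a filter or without any single chow diet aorta, and Creb1 was not called without any single HFD aorta. Without HFD replicate 1 or 2, Gnai3 had reads in 1 aorta and was not tested, and the same held for Creb1 without chow diet replicate 2 or 3.

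By role, the other adenylyl cyclases gave a single read, of Adcy2, over 7 genes. The other phosphodiesterases had reads in 3 of 14 genes, the guanylyl cyclases and natriuretic peptide receptors in 4 of 7, the G proteins in 4 of 9 and the kinases in 3 of 8. Of the anchoring proteins, which hold protein kinase A and phosphodiesterases near their targets, 10 of 12 had reads. Akap7 led these with 5, 12 and 18 HFD reads against 19, 13 and 23 chow diet reads, and the diets overlapped (log2 fold change -0.32, standard error 0.45, edgeR, adjusted p = 0.95). The other effectors had reads in 12 of 17 symbols, with Irag1 and Mrvi1 listed apart. Together they had 5.73 to 10.97 normalized HFD reads against 12.5 to 18.0 for the chow diet. That sum did not overlap between the diets with TMM scaling, while those of the other 6 lists did. As shares of all back-spliced reads it overlapped (0.192% in HFD replicate 1, 0.185% in chow diet replicate 1). With TMM scaling 5.89% of single host genes had the HFD lower without overlap, which is no rate for a sum over a list. Creb1 was the only call in its list.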

How the data were processed

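Back-spliced reads were counted in 6 mouse aortas, 3 per diet, from total RNA with ribosomal RNA depleted and, per the labels, RNase R treatment, in strand-marked libraries. The authors trimmed reads with Cutadapt, checked them with FastQC, used TopHat-Fusion on unmapped reads, and called circRNAs by CIRCexplorer and CIRI, with versions, build and the merging of callers not given in the sources used here. The deposited counts are raw back-spliced reads per circRNA. The deposited signal is SRPBM, the count over a library depth (57.7 to 73.7 M, from the ratio of both). Columns with the authors' fold changes, p-values and q-values were not used.

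Entries with the same end and starts 1 base apart were summed, and intergenic entries were left out of gene sums. The 891 Ensembl host identifiers all matched a symbol. edgeR 4.0.16 (glmQLFit and glmQLFTest, TMM, R 4.3.3, reads in at least 2 libraries, no replicate block) was adjusted by Benjamini-Hochberg over all features. Folds against 0 reads used a floor of 3 reads over the group and the observed reads of the other diet. Ratios had an exact binomial interval (95%) on reads pooled over each diet. Exact permutation tests were two-sided (scipy 1.17.1). No libraries of a diet were duplicates (chi-square over degrees of freedom 1.75 to 2.36, against about 1 for sampling noise). With simulated counts, edgeR called 78 of 142 host genes changed 8-fold, all in the right direction, with 87 others, and 46 of 124 circRNAs, with 125 others. With none changed it called 86 of 2634 and 126 of 4702. The simulated spread was fixed and not estimated from these data. More features passed the filter than the 2240 host genes and 2646 circRNAs tested here, so these rates do not carry over.

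The genes, lists and tests were chosen with earlier results of these data known. All 10 genes are named, with the leading circle of each, each called circle, circRNA690, and called pathway genes. Circles named beyond this rule, and Akap7, were chosen after their values were seen. Alternatives were library size alone, the authors' depth, DESeq2 1.42.0, limma 3.58.1 on log2 of SRPBM plus 13.6 (the smallest value above 0), no filter, a minimum of 3 libraries, 10 or more reads, the block, each aorta left out, entries as deposited, and exonic entries alone.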

Additional observations from a re-analysis of the deposited data

How the results depend on the processing

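Few reads limit every value here: most circles had 1 or 2, and the prior count sets fitted fold changes of groups at 0. By gene or circle, 222 of 265 alternative values kept direction and side of the threshold. These include results not called in the main fit, and fits in which a feature was not tested are left out. The call was kept in 7 of 15 alternatives for Adcy5, 11 of 12 for Adcy9 and 4 of 14 for mmu_circ_0006232. Against 90 circRNAs and 100 host genes called in all, each alternative over the features it tested, DESeq2 called 21 and 34, at least 10 reads 48 and 49, the replicate block 30 and 41, and single aortas left out 47 to 111 and 49 to 118. For the cyclase and phosphodiesterase circles, against 1 call of 13 tested, library size alone, DESeq2, no filter (35 tested), at least 10 reads (6 tested) and the block gave 0, limma gave 2 (105 of 2646 circRNAs in all), entries as deposited (14 tested) gave 3 (104 of 2564 in all), and single aortas left out (11 to 13 tested) gave 0 to 1. For their genes, against 2 calls of 6 tested, DESeq2 gave 0, library size alone, a minimum of 3 aortas (5 tested), 10 or more reads (5 tested) and the block gave 1, and single aortas left out (5 to 6 tested) gave 0 to 2. For the pathway genes, against 2 calls of 25 tested, no filter (37 tested) gave 1, DESeq2, limma, a minimum of 3 aortas (17 tested), 10 or more reads (7 tested) and the block gave 0, and single aortas left out (20 to 25 tested) gave 0 to 1. Reversed log2 fold changes were 0.14 (library size alone), 0.17 (DESeq2) and 0.028 (reads in at least 3 aortas) for Pde4d, -4.80 for circRNA2158 as deposited, and 0.17 (library size alone), 0.11 (DESeq2), 0.042 (limma), 0.053 (at least 10 reads) and 0.088 (block) for mmu_circ_0001166. With single aortas left out, values ran from -1.08 to 1.65 for Pde3a, -0.21 to 0.63 for Pde4a, -3.42 to 0.57 for Pde4d, -0.11 to 1.346 for circRNA1350, -0.27 to 0.54 for circRNA2158 and -0.44 to 0.23 for mmu_circ_0001166. The cause was not tested. Replicate numbers did not pair the aortas (correlations of same-numbered deviations -0.06 to -0.05; no aorta matched its own number best). With the block, Adcy5 (log2 fold change -1.61) and mmu_circ_0006232 (-4.32) were not called.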
